A study of Mus musculus with 120 samples.

Results

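The RNA of 10 genes of blood clotting was followed across mouse livers: the fibrinogen chain genes Fga, Fgb and Fgg, the clotting factor genes F2, F10, F7, F9 and F11, and the inhibitor genes Proc and Serpinc1. They were taken by symbol, each was found once, and they make up 10 of the 24883 rows of the expression table. The mice were of 10 Collaborative Cross strains, inbred lines that each hold a different mosaic of founder genomes: CC060, CC043, CC042, CC041, CC040, CC032, CC019, CC013, CC011 and CC003. Males and females of each strain had spent 12 weeks on the obesogenic HF/HS diet, which is rich in milkfat, cholesterol and sucrose, or on a control diet of the same ingredients with little fat and reduced sucrose. The animals' age is not given in the sources used here. Each strain, sex and diet had 3 libraries. The columns of CC040 female HF/HS 1 and CC040 female control 3 held the same values and were left out, so these groups had 2 libraries each. That left 59 HF/HS libraries (30 male, 29 female) and 59 control libraries (30 male, 29 female). The labels do not tie libraries to animals. The p-values therefore rest on the spread between libraries alone, and part of that spread may be technical.

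Values are the authors' FPKM, fragments mapped to a gene per unit of its length and of sequencing depth, rescaled so that the 75th percentile of every library lay at 9.98 to 10.0. Depth is therefore unknown. The libraries of 2 strains were of another kind. In CC060, Malat1, a nuclear RNA, had 53.1 to 121 units, against 911 to 1186 in CC003 and 645 to 1967 in the other 8 strains. In CC003 the values of a library summed to 3.19e+06 to 4.63e+06 units, against 926928 to 1.99e+06 in all other strains. Alb, the albumin gene, was listed at 0 in 102 libraries, so a 0 in this table need not mean absence. No member was at 0 in any library, and all 10 passed the filter of a mean of at least 1 that 12205 genes passed. The summed level of 7 other hepatocyte markers was 14337 to 46291 units in HF/HS libraries (median 32900) and 22528 to 117558 in control libraries (median 37643), so markers of the liver's main cell type were high in every library.

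Hepatocytes make and secrete these proteins. On exposure to tissue factor, factor VII (F7) activates factor X (F10), and factors XI (F11) and IX (F9) amplify that step. Activated factor X turns prothrombin (F2) into thrombin, which cuts fibrinogen into fibrin. Fibrinogen is built from equal numbers of alpha, beta and gamma chains, encoded by Fga, Fgb and Fgg. Antithrombin (Serpinc1) inhibits thrombin and activated factor X, and activated protein C (Proc) shuts off the cofactors of the cascade. F2, F10, F7, F9 and Proc encode vitamin K-dependent proteins, and the fibrinogen genes are acute-phase genes that interleukin 6 induces in liver.

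The fibrinogen genes lie side by side on mm10. Fgg spans chr3:83007896-83015049 on the plus strand, Fga chr3:83026153-83033617 on the plus strand and Fgb chr3:83042305-83049790 on the minus strand. The gaps were 11103 bases between Fgg and Fga and 8687 bases between Fga and Fgb. F7 at chr8:13026034-13035805 and F10 at chr8:13037308-13056676, both on the plus strand, were 1502 bases apart. F11 lies at chr8:45241168-45262031 on the minus strand, F2 at chr2:91625320-91636457 on the minus strand, F9 at chrX:59999464-60030760 on the plus strand and Serpinc1 at chr1:160978606-161003014 on the plus strand. All 10 are protein-coding genes.

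The upstream sequences of the fibrinogen genes are shown because the RNA levels of these genes ran closely together from library to library. Each is the 250 bases before the RefSeq start on GRCm38.p6, the build of mm10, written along the gene's own strand. For Fga this start was where the span given above begins, but it lay 73 bases upstream of that for Fgb and 172 for Fgg. The windows are chr3:83025903-83026152 (plus strand) for Fga, chr3:83049864-83050113 (minus strand) for Fgb and chr3:83007474-83007723 (plus strand) for Fgg. Capitals mark matches, on either strand, to CTGGGAA (core of the interleukin 6 response element) or TTGCNNAA (C/EBP type).
Fga: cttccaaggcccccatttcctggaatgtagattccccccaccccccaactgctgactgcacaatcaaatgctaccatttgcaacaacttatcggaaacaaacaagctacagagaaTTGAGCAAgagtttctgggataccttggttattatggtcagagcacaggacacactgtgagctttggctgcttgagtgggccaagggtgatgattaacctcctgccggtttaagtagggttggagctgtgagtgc
Fgb: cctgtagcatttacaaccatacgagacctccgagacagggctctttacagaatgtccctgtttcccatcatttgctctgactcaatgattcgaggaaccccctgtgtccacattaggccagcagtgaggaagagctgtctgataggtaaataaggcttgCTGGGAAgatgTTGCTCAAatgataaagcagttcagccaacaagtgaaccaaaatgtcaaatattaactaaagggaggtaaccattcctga
Fgg: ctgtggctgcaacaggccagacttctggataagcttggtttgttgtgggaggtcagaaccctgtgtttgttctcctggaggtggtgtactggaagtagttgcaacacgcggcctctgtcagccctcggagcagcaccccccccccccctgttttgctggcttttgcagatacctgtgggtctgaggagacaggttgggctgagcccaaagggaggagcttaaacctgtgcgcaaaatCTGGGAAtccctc
CTGGGAA stood in the Fgb and Fgg windows, at bases -91 to -85 and -13 to -7 from the start, and in 9.10% of the 32851 RefSeq promoters of this length. TTGCNNAA stood at -135 to -128 in Fga and at -80 to -73 in Fgb, and in 9.56% of all promoters. The matches were not particular to the fibrinogen genes. In the same search F9 held CTGGGAA at -82 to -76 and TTGCNNAA at -24 to -17, and F11 held TTGCNNAA at -17 to -10. These matches describe letters, and no binding was measured.

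The members spanned a wide range of levels per length. Over all libraries used the median was 4975 units for Fgb, 4224 for Fgg, 3120 for Fga, 1772 for Serpinc1, 1486 for F2, 428 for Proc, 289 for F10, 161 for F9, 90.0 for F7 and 48.6 for F11. The order was close to fixed: Fga was above Serpinc1 in every library, Serpinc1 above F2 in 110, F9 above F7 in 107 and F7 above F11 in 115. Neighbours in that order overlapped in range across libraries. The coefficient of variation over libraries was 45.6% for Fgb, 45.4% for Fgg, 43.9% for Fga, 43.4% for F11 and 39.1% for F7, against 15.2% for F9 and 17.7% for F2.

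**Figure D1:**
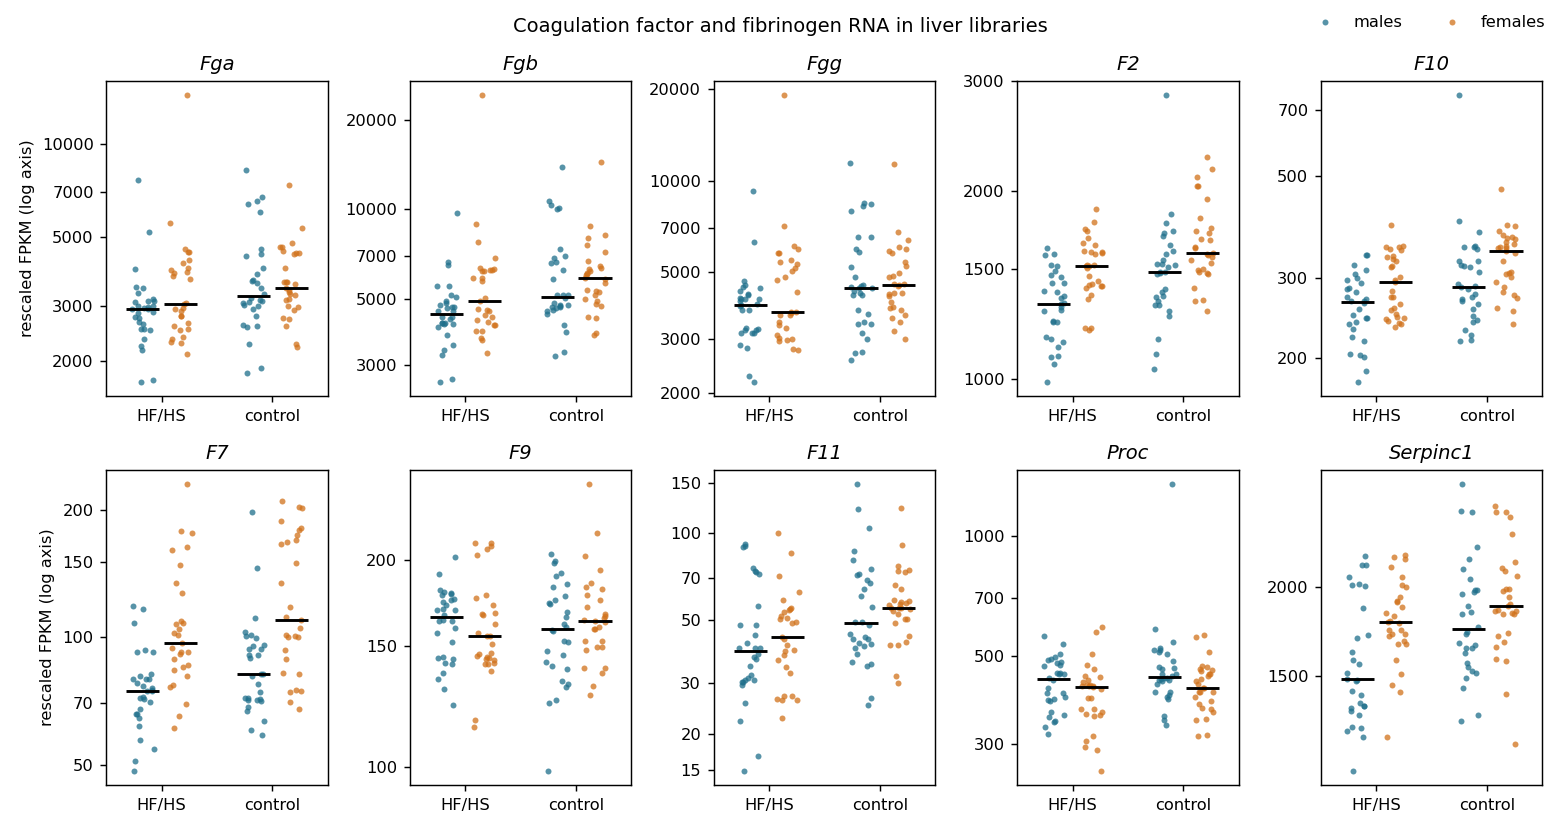
Level of each member in each library used, in rescaled FPKM on log axes that differ between panels. HF/HS libraries stand left and control libraries right, with males (blue) left of females (orange), and black bars mark medians. The diets overlapped for every member, and 1 HF/HS female library had the highest value of Fga, Fgb and Fgg.

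Clotting gene RNA was lower on the HF/HS diet. Over all strains and sexes 9 of the 10 members fell, while 15.4% of all genes tested were called lower and 32.6% either way. A gene is called at a Benjamini-Hochberg adjusted p under 0.05 in limma, fitted to log2(value + 1) with 1 mean for each of the 40 groups. The falls were modest: the median log2 difference of the members was -0.18, against 0.000588 over all genes tested. F11 fell the most and F9 was not called. Under quantile normalization 5 members fell and 0 rose, and with strain as the unit the calls of Fga, Fgg and Proc were lost. In whole liver, fewer hepatocytes and less RNA per hepatocyte cannot be told apart.

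The 3 fibrinogen chains fell by like amounts. Fga had 1708 to 14374 units in HF/HS libraries (median 2949) and 1818 to 8262 in control libraries (median 3371). Fgb had 2642 to 24137 units in HF/HS libraries (median 4591) and 3228 to 14459 in control libraries (median 5380). Fgg had 2174 to 19120 units in HF/HS libraries (median 3883) and 2576 to 11469 in control libraries (median 4474). Both diets covered much the same range, with the highest value of each chain in an HF/HS library. The log2 difference was -0.18 ± 0.0639 (SE) for Fga, -0.25 ± 0.0638 for Fgb and -0.20 ± 0.0641 for Fgg, with limma adjusted p of 0.0195, 0.00127 and 0.0105. The calls of Fga and Fgg were lost in 10 and 8 of 36 alternative settings, among them the fit without CC003 and CC060 (adjusted p = 0.0572 and 0.0772) and the one with strain as the unit (adjusted p = 0.0762 and 0.0636). Fgb kept its call in all 36 settings, with adjusted p up to 0.0425.

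Among the vitamin K-dependent factors, F2, F10 and F7 fell and F9 did not pass the test. F2 had 989 to 1873 units in HF/HS libraries (median 1419) and 1037 to 2849 in control libraries (median 1535). F10 had 177 to 391 units in HF/HS libraries (median 272) and 217 to 753 in control libraries (median 309). These 2 genes were lower on the HF/HS diet in all 10 strains. F7 had 48.4 to 230 units in HF/HS libraries (median 81.8) and 58.8 to 210 in control libraries (median 93.7). Its diet difference was below 0 in 9 strains, and CC019 was the exception. The log2 difference was -0.15 ± 0.0237 for F2, -0.19 ± 0.0310 for F10 and -0.18 ± 0.0307 for F7, with limma adjusted p of 2.05e-07, 7.32e-07 and 2.09e-06. All 3 kept their calls in all 36 alternative settings, although quantile normalization took F2 to -0.04 (adjusted p = 0.0390).

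F9 stood apart from the other members. It had 114 to 212 units in HF/HS libraries (median 161.3) and 98.8 to 258 in control libraries (median 161.4). Its log2 difference was -0.01 ± 0.0301, with a 95% interval of -0.07 to 0.05 and a limma adjusted p of 0.784, and 5 strains were on each side of 0. Set against the other 9 members strain by strain, the F9 diet difference was the higher one in each mean, by 0.08 (Proc) to 0.35 (F11) on the log2 scale. Exact two-sided sign-flip tests over the 10 strains gave p adjusted over the 9 pairs of 0.00586 to 0.0449. F9 was above F2, F10 and F11 in 10 of 10 strains, for which the exact test gave its smallest possible p of 0.00195 before adjustment. It was above F7 and Serpinc1 in 9 strains, Proc in 8, Fga and Fgb in 7 and Fgg in 6. F9 was singled out for these tests after its values were seen.

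F11, the factor XI gene, had 14.9 to 99.99 units in HF/HS libraries (median 39.9) and 25.3 to 148 in control libraries (median 54.9). Its log2 difference was -0.36 ± 0.0582 (limma adjusted p = 5.13e-07), below 0 in all 10 strains and in 18 of 20 groups of a strain and sex. In 12 of the 20 groups every HF/HS library was below every control library, and in 1, the CC013 males, every HF/HS library was above, where the shares over all genes were 10.6% and 11.1% of groups. The CC043 males had 16.7, 30.3 and 14.9 units on the HF/HS diet and 34.5, 35.5 and 39.8 on the control diet. The CC003 females had 38.9, 26.4 and 34.1 units on the HF/HS diet and 52.1, 40.9 and 48.7 on the control diet. Neither pair of groups overlapped.

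Both inhibitor genes fell as well. Serpinc1 had 1104 to 2218 units in HF/HS libraries (median 1706) and 1205 to 2796 in control libraries (median 1852). Proc had 258 to 593 units in HF/HS libraries (median 420) and 315 to 1354 in control libraries (median 438). The log2 difference was -0.15 ± 0.0288 for Serpinc1, below 0 in all 10 strains, and -0.10 ± 0.0351 for Proc, below 0 in 8 strains. Their limma adjusted p-values were 1.54e-05 and 0.0271. The Serpinc1 call was lost in 1 of 36 settings, quantile normalization (-0.05, adjusted p = 0.111). The Proc call was lost in 11 of 36, with adjusted p up to 0.477 under quantile normalization.

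**Figure D2:**
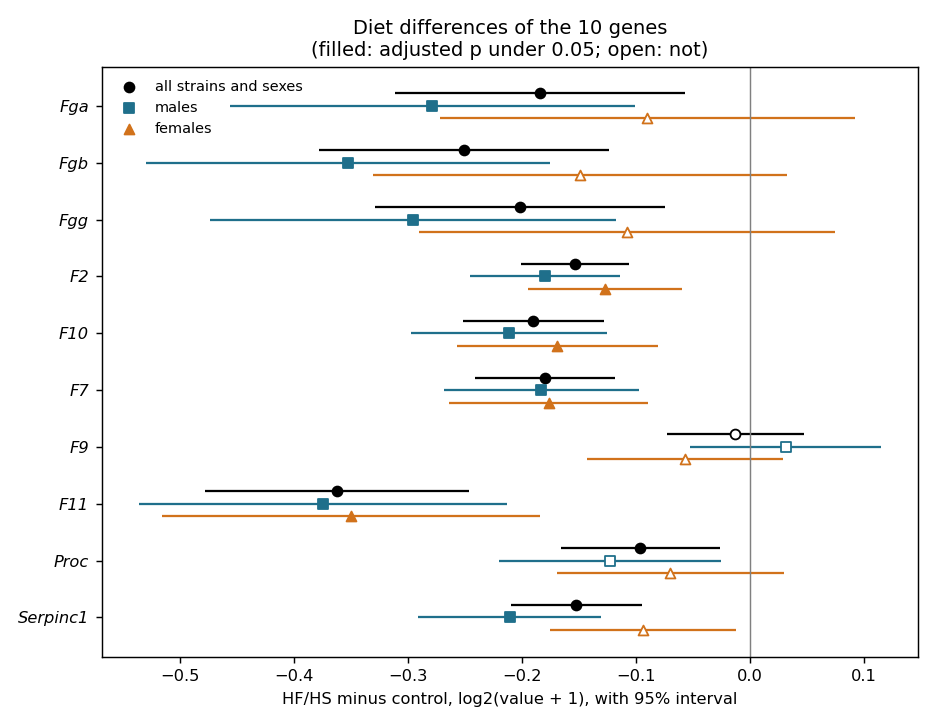
HF/HS minus control difference of each member on the log2(value + 1) scale, with 95% intervals, over all strains and sexes (black circles), in males (blue squares) and in females (orange triangles). Filled symbols are called by limma. F11 has the lowest value over all, -0.36, and F9 the highest, -0.01.

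In males 8 of 10 members fell, where 9.93% of all genes were called lower, and in females 4 of 10, where 8.08% were. In males the called genes were F2 (-0.18), F10 (-0.21), F7 (-0.18), F11 (-0.37), Fga (-0.28), Fgb (-0.35), Fgg (-0.30) and Serpinc1 (-0.21). In females they were F2 (-0.13), F10 (-0.17), F7 (-0.18) and F11 (-0.35). The male minus female difference in diet effect was called for 0 of 10 members in limma, where 0.877% of genes were called, so the sexes are not shown to differ in their response. It ran from -0.20 ± 0.128 for Fgb to 0.09 ± 0.0603 for F9. Serpinc1 stood at -0.12 ± 0.0575, with a limma p of 0.0450 before and an adjusted p of 0.422 after correction, and it was the 1 member under 0.05 before correction. With strain as the unit, 1 member was called in each sex. In females the calls of F10 and F7 were lost without CC032 (adjusted p = 0.0618 and 0.145), which left 2 called. In males the calls of Fga and Fgg were lost without CC042.

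The fibrinogen values depended in part on 1 library, CC011 female HF/HS 1, described below. Without it the diet difference of the females was -0.15 for Fga, -0.21 for Fgb and -0.17 for Fgg, none of them called (adjusted p = 0.0504 for Fgb), against -0.09, -0.15 and -0.11 with it. The fall of Fgb in females was called without all of CC011 (-0.24, adjusted p = 0.0351), without female HF/HS library 1 of every strain (-0.26, 0.0250) and with library weights (-0.21, 0.0186). Over all strains and sexes the difference without it was -0.22 for Fga, -0.28 for Fgb and -0.23 for Fgg, with limma adjusted p of 0.00157, 2.83e-05 and 0.000604. The fit without that single library was chosen after the data were seen.

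Cell type markers moved with the diet too, where 15.4% of all genes tested were called lower and 17.2% higher. Of 8 hepatocyte markers 5 fell, among them Apoh (-0.18), Cps1 (-0.27) and Tat (-0.42), and the list's median of -0.20 was near the members' -0.18. The 1 that was called higher was Alb, which was mostly listed at 0. Of 6 Kupffer cell and macrophage markers 3 rose, Cd5l (0.36), Cd68 (0.32) and Adgre1 (0.24), and their summed level had a median of 296 units in HF/HS and 259 in control libraries. Of 5 stellate cell markers 2 rose, Col3a1 (0.58) and Col1a1 (0.40), and of 7 endothelial markers 3 rose, Vwf (0.23), Stab2 (0.12) and Pecam1 (0.09). Ppbp (0.25) rose among 3 tested platelet markers and Alas2 (0.28) among red cell markers. The part of these shifts in the falls of the clotting genes was not tested.

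F7 was the member with the widest sex difference. In HF/HS livers it had 48.4 to 119 units in males (median 74.7) and 61.0 to 230 in females (median 96.5). In control livers it had 58.8 to 197 units in males (median 81.6) and 67.7 to 210 in females (median 110). The sexes overlapped in range across strains, with the male median lower on both diets. The male minus female log2 difference was -0.46 ± 0.0435 on the HF/HS diet and -0.45 ± 0.0435 on the control diet, with limma adjusted p of 2.53e-15 and 4.76e-15. F7 was lower in males in 10 of 10 strains on the HF/HS diet and in 9 of 10 on the control diet, where CC011 was at 0.02.

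That gap was measured in each strain. CC042 had 74.8, 81.8 and 75.6 units of F7 in HF/HS males and 163, 176 and 148 in HF/HS females, and 93.5, 90.9 and 103 in control males and 202, 181 and 210 in control females. Its sexes did not overlap on either diet, at -1.06 and -1.04 on the log2 scale. CC032 stood at -0.15 on the HF/HS diet and at -0.92 on the control diet, and its females had 92.0, 105 and 96.5 units on the HF/HS diet and 175, 169 and 179 on the control diet. The CC032 males had 79.5, 92.4 and 92.1 units on the HF/HS diet and 93.7, 81.6 and 101 on the control diet, and overlapped. Whether the sex gap of F7 differed between strains was not tested.

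**Figure D3:**
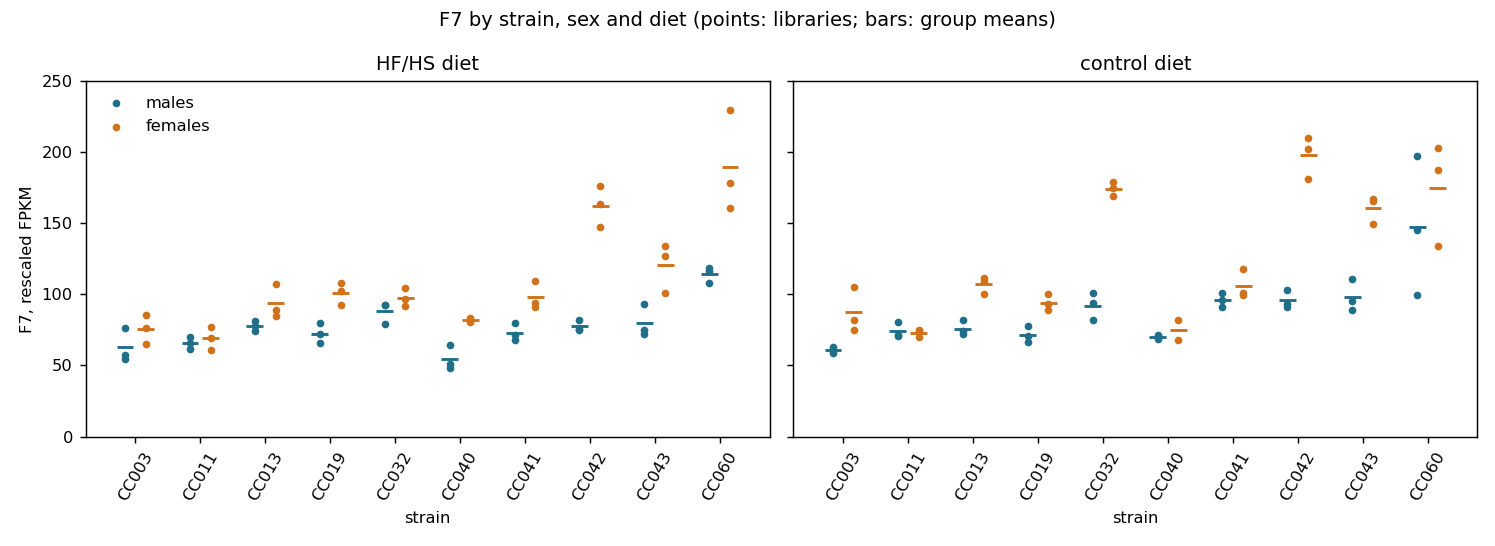
F7 in rescaled FPKM by strain, with HF/HS libraries in the left panel and control libraries in the right one, males (blue) left of females (orange), points for libraries and bars for group means. Female means were above male means in all 10 strains on the HF/HS diet and in 9 on the control diet.

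Other members were called between the sexes as well. On the HF/HS diet 5 of 10 members were called lower in males, where 20.3% of all genes were: F7, F2 (-0.20), F10 (-0.18), Serpinc1 (-0.20) and Fgb (-0.25, limma adjusted p = 0.0188). On the control diet 3 were called lower in males, where 18.8% of genes were, F7, F2 (-0.15) and F10 (-0.14), and Proc was higher (0.15, adjusted p = 0.0118), where 24.8% were. F2 was lower in males in all 10 strains on the HF/HS diet. Proc was higher in males in 9 of 10 strains on the control diet. The control diet call of F10 was lost in 5 of 35 settings, among them the fit without CC042 (adjusted p = 0.0503), and with strain as the unit the adjusted p was 0.175 for F10 and 0.116 for F2. The Fgb call on the HF/HS diet was lost in 7 of 36 settings, and that of Serpinc1 with strain as the unit (0.0614). The Fgb difference on the HF/HS diet was -0.18 without CC011 female HF/HS 1 (adjusted p = 0.0497) and -0.14 without all of CC011 (0.191). The Proc difference on the control diet was 0.07 (0.212) without library 3 of the male controls, which takes out the high CC060 library described below. That Proc call was lost in 4 of 35 settings, the others being library weights, female control library 1 left out and strain as the unit. Under quantile normalization the calls in males were 7 lower and 1 higher on the HF/HS diet and 6 lower and 1 higher on the control diet.

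The F7 sex difference was also set against that of each other member over the 10 strains, a comparison chosen after the values were seen. On the HF/HS diet it was further below 0 than those of F2, F10, F9 and Proc, with exact two-sided sign-flip p adjusted over 9 pairs of 0.0117 to 0.0220. The differences from Serpinc1 (adjusted p = 0.0563), F11 (0.117), Fga (0.193), Fgg (0.193) and Fgb (0.270) did not pass on that diet. On the control diet it was further below 0 than those of 8 members, with adjusted p of 0.00586 to 0.0110. Against F11 on the control diet it was -0.39 ± 0.193 apart (adjusted p = 0.0723).

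Strains differed in their clotting gene levels. Among control libraries of the 8 strains of like library kind, the limma F test called 9 of 10 members, where 86.5% of all genes were called, so that share is near the background. F7 had the highest F, 27.4 (adjusted p = 7.48e-18), and Proc was the member not called (adjusted p = 0.411). Proc was called in 3 of 24 settings: quantile normalization, library weights and all 10 strains. Fgb averaged 8518 ± 2162 units in CC042 and 3876 ± 575 in CC043 (SD, n = 6 each), a ratio of 2.2. F7 averaged 147 ± 56.7 units in CC042 (n = 6) and 72.0 ± 5.90 in CC040 (n = 5), a ratio of 2.04. F11 averaged 75.5 ± 12.8 units in CC041 and 38.8 ± 7.16 in CC019 (n = 6 each), a ratio of 1.94. The libraries of these pairs of strains did not overlap. These means pool males and females, so their SD holds sex differences too. In CC042 the male minus female log2 difference on the control diet was 0.65 for Fgb and -1.04 for F7. Proc varied least, at 492 ± 29.3 units in CC041 and 408 ± 53.5 in CC032 (n = 6 each), a ratio of 1.20 with overlapping libraries.

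Whether the diet effect differed between strains was tested with an F test, which called 0 of 10 members in limma, where 5.54% of genes were called. F7 had the lowest adjusted p, 0.127, and was the 1 member under 0.05 before adjustment. Quantile normalization called 1 member and the fit without CC003 and CC060 called 1, while library weights, whose estimation did not converge, called 9. In single groups of a strain and sex, 13 of the tests on the 10 members in 20 groups were called, all of them lower, against 1.49% called lower over all genes. By strain, with sexes joined, 8 were called, all lower, against 2.2% over all genes. Leaving out 1 library number at a time gave 5 to 17 and 5 to 9 calls.

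**Figure D4:**
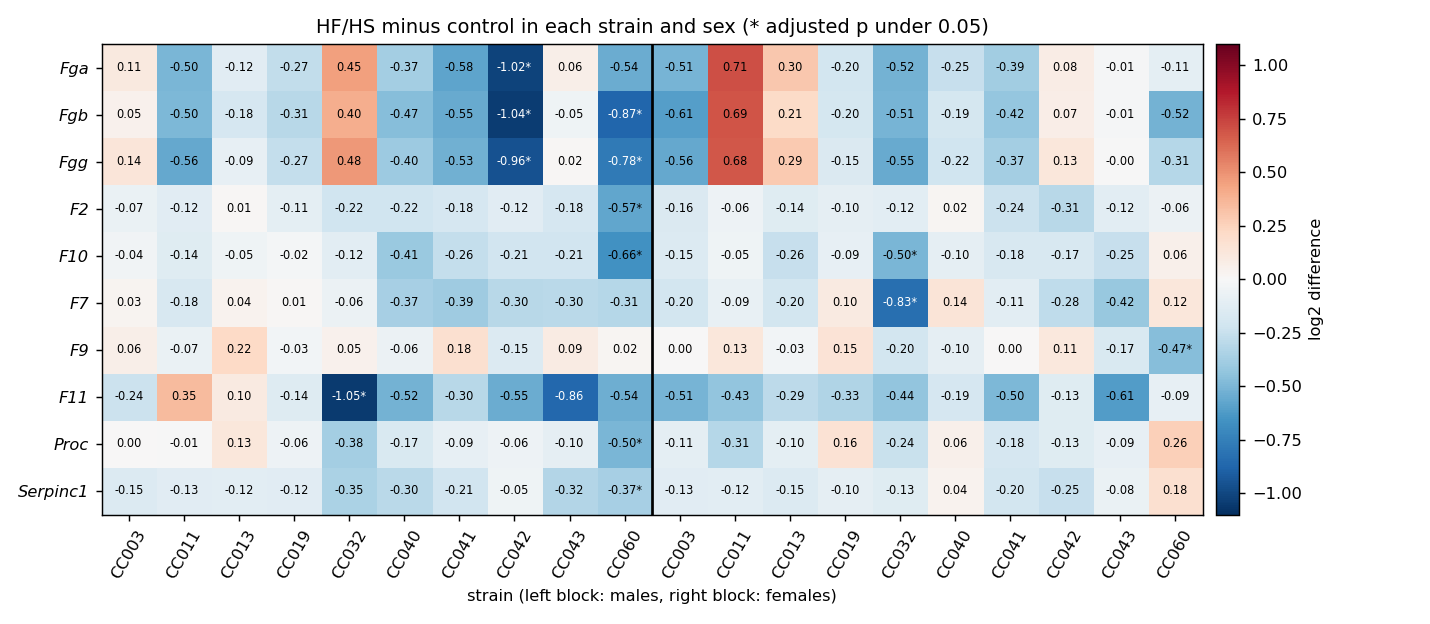
HF/HS minus control log2 difference of each member (rows) in each strain, males in the left block and females in the right one, with stars for limma adjusted p under 0.05. The 13 starred cells are all below 0, and the CC011 females have the highest values, 0.71 for Fga, 0.69 for Fgb and 0.68 for Fgg.

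Fibrinogen fell in CC042 males, where 4.34% of genes were called. Fgb had 4667, 5521 and 4942 units in HF/HS libraries and 10644, 10361 and 10101 in control libraries. Fga had 2846, 3444 and 3112 units in HF/HS libraries and 6559, 6419 and 6042 in control libraries. The groups did not overlap, and the control libraries were among the highest of all. The log2 difference was -1.04 ± 0.282 for Fgb, -1.02 ± 0.282 for Fga and -0.96 ± 0.283 for Fgg (limma adjusted p = 0.0167, 0.0208 and 0.0330). Saa1, an acute-phase gene, had 735, 521 and 609 units in the same HF/HS libraries and 20130, 11551 and 4482 in the control libraries. Its part in the fibrinogen difference was not tested. In CC042 females the fibrinogen groups overlapped, and Fgb had 7751, 6900 and 6274 units on the HF/HS diet and 6114, 5888 and 8003 on the control diet. With 2 libraries left in 1 of the male groups, the Fgb difference was between -0.99 and -1.11 and its limma adjusted p between 0.0479 and 0.0754. In the same 6 fits the Fgb and Fga calls were lost in 5, with adjusted p up to 0.102 for Fga, and the Fgg call was lost in all 6, with adjusted p up to 0.136. Under quantile normalization the limma adjusted p of the CC042 males was 0.161 for Fga, 0.0649 for Fgb and 0.0669 for Fgg.

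In CC060 males 6 members were called lower, in a group where 22% of genes were called. Fgb had 4132, 4362 and 4694 units in HF/HS libraries and 5058, 13904 and 7382 in control libraries. F10 had 291, 279 and 297 units in HF/HS libraries and 319, 399 and 753 in control libraries. Proc had 536, 499 and 561 units in HF/HS libraries and 541, 584 and 1354 in control libraries. Single control libraries stood far above the others, CC060 male control 2 for Fgb and control 3 for F10 and Proc. Control 3 also had the highest hepatocyte marker sum of all libraries, 117558 units, and control 2 had 54930 units of Saa1. The part of either in these calls was not tested. Without library 3 of the male controls of each strain the differences were -0.30 for F10 (adjusted p = 0.230), -0.08 for Proc (0.916), -0.16 for Serpinc1 (0.719) and -0.31 for F2 (0.0563). Without library 2 they were -0.48 for Fgb (adjusted p = 0.255) and -0.41 for Fgg (0.338).

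CC032 gave calls in both sexes. In its females F10 had 239, 250 and 244.5 units on the HF/HS diet and 349, 340 and 351 on the control diet, with no overlap (-0.50 ± 0.137, limma adjusted p = 0.0175). Its call was lost when female HF/HS library 1 or 2 or female control library 2 or 3 was left out, with adjusted p of 0.0593 to 0.1002. F7, with the values above, was at -0.83 ± 0.136 (adjusted p = 1.4e-05) in the same females. Of all genes 4% were called there. F11 in CC032 males had 30.3, 25.5 and 22.1 units on the HF/HS diet and 48.1, 41.5 and 80.4 on the control diet, without overlap (-1.05 ± 0.257, adjusted p = 0.0108, with 1.66% of genes called). Without library 3 of the male controls it was -0.77 (adjusted p = 0.316). Fibrinogen was not called in either sex, and its means lay on opposite sides of 0, for Fgb at 0.40 in males and -0.51 in females. The last called value was F9 in CC060 females, at 117, 145 and 161 units on the HF/HS diet and 258, 160 and 178 on the control diet (-0.47 ± 0.133, adjusted p = 0.0351), where 2.44% of genes were called. Without the first library of the female controls it was -0.27 (adjusted p = 0.553).

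The 3 chains kept nearly fixed proportions. Fgb over Fga was 1.57 ± 0.139 in HF/HS libraries and 1.65 ± 0.171 in control libraries (SD, n = 59 each), and Fgg over Fga was 1.30 ± 0.0881 in HF/HS libraries and 1.32 ± 0.140 in control libraries. Some strains did not overlap in these proportions. Fgb over Fga averaged 1.31 ± 0.0439 in CC032 (n = 12, range 1.22 to 1.40) and 1.72 ± 0.0871 in CC040 (n = 10, range 1.59 to 1.84). Fgg over Fga averaged 1.19 ± 0.0291 in CC032 and 1.41 ± 0.0542 in CC019 (n = 12 each), and 1.15 ± 0.0381 in CC003. Within the 9 strains other than CC060 the coefficient of variation of these ratios was 2.45% to 6.07%, and in CC060 it was 18.2% for Fgb over Fga and 15.4% for Fgg over Fga.

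Library by library the chains ran closely together. With the group mean of each strain, sex and diet removed, Pearson's r over all libraries used (59 on each diet) was 0.97 for Fga with Fgb, 0.98 for Fga with Fgg and 0.98 for Fgb with Fgg, and Spearman's rho was 0.97, 0.98 and 0.97. Without the 2 libraries farthest from the median, r was 0.97, 0.97 and 0.98. Fibrinogen chains paired with the other 7 members gave r of -0.13 to 0.57. F2, F10, F7, Proc and Serpinc1 correlated with one another, with r of 0.61 (F7 with Proc) to 0.87 (F2 with F10). F2 with Proc gave 0.82, F10 with F7 0.84 and Proc with Serpinc1 0.80. Fgb paired with Proc gave -0.01 and with Serpinc1 -0.08, with rho of 0.25 and 0.10. Without the 2 farthest libraries r was 0.117 and 0.0727 for these pairs. Over the 32 group means of the 8 strains of like library kind it was 0.05 and 0.50. These values are descriptions, since members of a pair share each library's scaling and RNA quality.

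**Figure D5:**
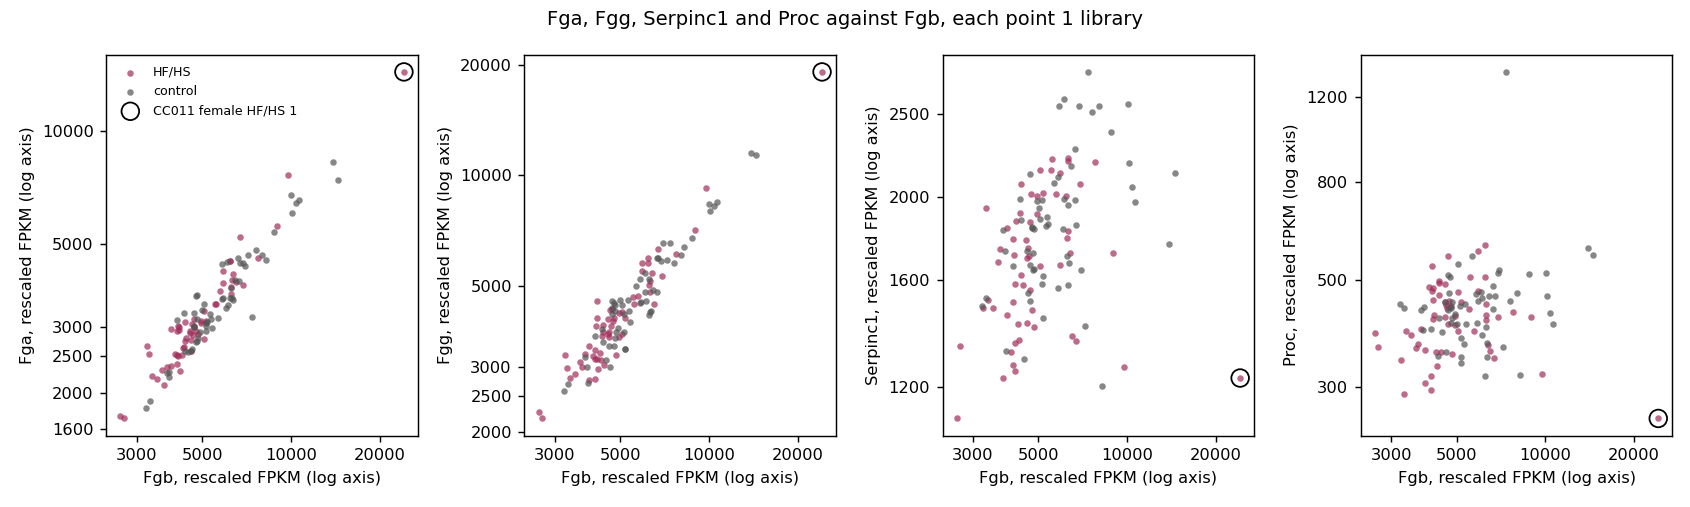
Fga, Fgg, Serpinc1 and Proc against Fgb in rescaled FPKM on log axes, each point 1 library, HF/HS libraries in red and control libraries in grey. Fga and Fgg follow Fgb more closely than Serpinc1 and Proc do. The circled library, CC011 female HF/HS 1, has the highest Fgb, 24137, and the lowest Proc, 258.

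The library CC011 female HF/HS 1 showed how far the members can part. It had the highest Fga (14374 units), Fgb (24137) and Fgg (19120) of all libraries, where the other 2 libraries of its group averaged 3902, 6331 and 5108. Its Proc was the lowest of all (258 units, against a mean of 395 in those 2), its Serpinc1 ranked 116th from the top (1231 against 1772) and its F7 ranked 112th (61.0 against 73.3). Its F9 ranked 3rd (212 against 155) and its F11 ranked 5th (99.99 against 24.4). F2 and F10 stood in the middle, ranked 51st and 44th. The chains and F11 thus stood several-fold above the group mates, and both inhibitor genes stood below them. Acute-phase genes were at their highest there too, with 99007 units of Saa1 against 2262 in the group mates and 7061 of Apcs against 903, while Hp was listed at 0. Its summed Kupffer cell markers were the highest, 901 units, and its 7 hepatocyte markers the lowest, 14337. The part of these in the member values was not tested.

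The next libraries by summed fibrinogen were CC060 male control 2 (33635 units), CC060 female control 3 (33176) and CC032 male HF/HS 3 (26640), against a median of 12299. Their Saa1 was 54930, 12415 and 22120 units, against a median of 244. Saa1 was not above that median in all such libraries: CC041 male control 3 had 25147 units of summed fibrinogen and 75.1 of Saa1. Both were above the means of its group mates, 16290.5 and 16.9. Over all libraries, with group means removed, r with Fgb was 0.83 for Itih4, 0.80 for Serpina3n and 0.67 for Saa1 (rho 0.62, 0.61 and 0.49), and 0.77, 0.73 and 0.60 without the 2 farthest libraries. For Hp and Hpx, r with Fgb was -0.27 and -0.32, and 0.09 and 0.01 without CC011 female HF/HS 1, where Hp was listed at 0. Yet Hp was above the mean of the group mates in CC060 male control 2 (22276 units against 9972). The same held in CC060 female control 3 (18173 against 5473) and CC032 male HF/HS 3 (14284 against 6249). In the interleukin 6 pathway, r with Fgb was 0.69 for Stat3, 0.65 for Socs3 and 0.22 for Il6ra, the interleukin 6 receptor gene. Without CC011 female HF/HS 1 these were 0.71, 0.59 and 0.24. For Orm1, Crp, Saa2, Apcs, Lcn2 and Saa3 it was 0.70, 0.70, 0.69, 0.67, 0.62 and 0.48. Without that library it was 0.62, 0.62, 0.65, 0.61, 0.56 and 0.30. The acute-phase list as a whole had 3 of 18 genes called higher on the HF/HS diet, Orm3 (0.63), Lcn2 (1.04) and Saa3 (0.76), and Apcs lower (-0.51), where 17.2% of all genes were called higher and 15.4% lower. Its median was -0.01, and it was not tested against the fibrinogen chains.

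Across the 32 group means of the 8 strains of like library kind, each chain was most like the other chains (r of 0.95 to 0.98), followed by Ptpn2 for Fga (0.77) and Fgg (0.78) and by Itih4 for Fgb (0.82). F2 and Serpinc1 were each other's nearest gene (0.84). Proc was nearest to Apoh (0.87), Car8 (0.85) and Apoa1 (0.84), F10 to Hdac1 (0.85) and F7 to Ank (0.81). F9 (Lysmd4, 0.74) and F11 (U2surp, 0.72) had no gene above 0.75 among those ranked. The points share strains and diets, and the genes were ranked over all tested genes, so these are descriptions.

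Of 35 other genes of clotting and fibrin breakdown, 33 were tested. On the HF/HS diet 10 fell and 5 rose over all strains and sexes, while 15.4% of all genes were called lower and 17.2% higher. The list's median was -0.04. Kininogen (Kng1, -0.28, and its close paralog Kng2, -0.27, which may share reads), Habp2 (-0.15), plasminogen (Plg, -0.13) and heparin cofactor II (Serpind1, -0.14) fell. Von Willebrand factor (Vwf, 0.23), made by endothelium and platelets, rose, and did so by 0.31 in males. Plaur, the urokinase receptor, rose by 0.26 in females. Between the sexes, Fgl1, a fibrinogen-like hepatocyte gene, was lower in males (male minus female -1.95 on the HF/HS diet and -1.34 on the control diet), and Vkorc1l1, a vitamin K epoxide reductase, was higher (0.32 and 0.26). Of 13 transcription factors of hepatocyte genes 2 fell on the HF/HS diet, Hnf4a (-0.11) and Foxa3 (-0.19), a share near the 15.4% of all genes. Cebpa (0.01) was not called.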

How the data were processed

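Total RNA of flash-frozen livers was sequenced. Per the submitters' processing notes, TopHat2 2.1.1, Bowtie2 2.2.5.0, Cufflinks 2.2.1 and mm10 were used, but how values were scaled is not stated in them. The deposited table holds FPKM that the authors rescaled. These are not counts, so no counting error can be given. Of 24883 rows, 1 with a missing value was left out.

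Every gene whose mean over the 120 columns reached 1 was tested with limma 3.58.1 in R 4.3.3 on log2(value + 1), with 40 group means and a trended, robust prior. Contrasts weighted strains equally, and two-sided p-values were adjusted over 12205 genes. The fit was tested on simulated data with independent errors, each gene having the same spread in every library. Outlying libraries were not simulated. Folds of low genes are understated by the added 1. Scaling by the 75th percentile ties values to the other genes of a library.

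All members were reported, with up to 6 other clotting genes per comparison by lowest p, up to 3 markers per list and the 3 genes most like each member. The members, lists and tests were chosen with earlier results of these data known. Library numbers did not pair samples (see the closing section). Deposited starts count from 0, and 1 was added. RefSeq promoters (GRCm38.p6) matched 9 of 10 members by symbol. Alternatives covered the pseudocount, filter, normalization, prior, block, library weights, columns, strains and left-out libraries.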

Additional observations from a re-analysis of the deposited data

Results flagged for a closer look

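F9 in CC042 and F11 in CC013 are listed because the sexes moved in opposite directions with the diet and neither sex overlapped. In CC042 males F9 had 176 to 181 units on the HF/HS diet and 189 to 204 on the control diet, and in CC042 females 208 to 211 on the HF/HS diet and 185 to 202 on the control diet. The male minus female diet difference was -0.26 on the log2 scale. In CC013 males F11 had 72.0 to 73.8 units on the HF/HS diet and 63.8 to 71.9 on the control diet, and in CC013 females 40.7 to 53.3 on the HF/HS diet and 55.0 to 64.1 on the control diet. The difference was 0.39. Neither difference was tested.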

How the results depend on the processing

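Depth is unknown, groups hold 2 or 3 libraries, and the labels do not tie libraries to animals. Leaving out 1 library number at a time gave 6 to 9 of 10 members called for the diet over all strains and sexes, 3 to 5 in females, 6 to 9 in males, 4 to 7 for sex on the HF/HS diet, 3 to 4 for sex on the control diet, 5 to 17 in groups of a strain and sex and 5 to 9 in strains. Quantile normalization gave 5 for diet over all, 5 in males, 8 and 7 for sex on the HF/HS and control diets and 1 for the diet effect between strains. Library weights, whose estimation stopped before it converged, gave 7 in females, 9 between strains, 57 in groups and 36 in strains. Without CC003 and CC060 it was 1 between strains and 15 in strains. Without CC032 it was 2 in females. With strain as the unit it was 1 in each sex, 3 for sex on the HF/HS diet and 1 on the control diet. The cause was not tested.

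Directions turned as follows, all among values that were not called in the main fit, save the first pair. Quantile normalization gave 0.131 for Serpinc1 in CC060 males and 0.0044 for F2 in CC060. The F9 diet difference became 0.0129 under quantile normalization, 0.0082 without CC003 and CC060, and 0.0109 without CC060, and ranged from -0.0356 to 0.0011 with 1 library number left out. For male minus female on the control diet, Fga became 0.0357 with library weights, 0.0430 without CC003 and CC060, 0.0300 without CC003, 0.0189 without CC032, 0.0054 without CC040, 0.0066 without CC043, and 0.0034 without CC060, and ranged from -0.0614 to 0.0571 with 1 library number left out. Fgg became -0.189 under quantile normalization, where it was called lower in males (limma adjusted p = 0.0221). Fgg also became -0.0161 with size factors, -0.0037 without CC041, and -0.0722 without CC042, and ranged from -0.0741 to 0.0876 with 1 library number left out. Fgb became 0.0013 without CC003 and CC060, and ranged from -0.112 to 0.0160 with 1 library number left out. F9 became 0.0010 without CC003 and CC060, and F11 0.0299 without CC011 and 0.0278 without CC043. On the HF/HS diet, F9 became -0.0061 without CC032 and F11 0.0286 without CC043. Of 30 called differences of members over diets and sexes, 0 changed sign in any alternative.

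Library numbers were checked as a pairing: of 58 pairs of same-numbered libraries, deviations correlated from -0.22 to 0.36 (median -0.01), and 9 were over 0.1, so they share only a number. With the number as a replicate block over all groups, 9 members were called for diet over all, 4 in females, 8 in males and 13 in groups, and with the block within strain and sex 9, 4, 8 and 14.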
